A study of Mus musculus with 22 samples.

Results

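Stem cells and enterocytes sorted from mouse colon crypts were compared by RNA sequencing, over all genes and by gene function. The comparison uses 8 of the 22 libraries of the series, 3 of stem cells and 5 of enterocytes, which were chosen by the cell type in their labels. All mice were untreated wild type C57BL/6N males of 5 to 7 weeks. Both cell types were sorted as live Cd31-, Cd45-, Epcam+ cells of the colon, stem cells with the gate Cd44highest, Cd24low, Ckit- and enterocytes with the gate Cd44low/-, Cd24-. By the methods of the study each stem cell library came from 1 mouse, while each enterocyte library pooled several mice, so that animals were mixed in enterocytes and not in stem cells. RNA of more than 2500 cells per library was amplified from a low input, and reads per gene were counted for 24421 genes, of which 22781 passed a filter on low counts. In bulk samples like these, fewer cells of a type and less RNA per cell cannot be told apart.

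Colon crypts are lined by a single epithelial layer that renews itself from stem cells at the crypt base, where Wnt signals keep Lgr5-positive cells dividing. Daughter cells pass through absorptive or secretory progenitors and leave the cell cycle as they move up. Enterocytes, called colonocytes in the colon, are the absorptive end state, and they take up salt, water and short-chain fatty acids through transporters on a brush border of microvilli and meet the gut microbes at the surface.

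From stem cells to enterocytes, genes of the crypt base (20 of 25 members tested called lower), DNA replication (37 of 41), mitosis (33 of 33) and ribosome production (36 of 40) fell, with none called higher and with 11.5% of all genes tested called lower. Nutrient carriers (18 of 36 called higher, 3 lower), apical hydrolases (15 of 21, 2 lower), brush border genes (11 of 26, 0 lower) and interferon-responsive genes (16 of 30, 3 lower) rose more often than they fell, with 10.7% of all genes tested called higher. Lgr5, the receptor that marks colon stem cells, was 15-fold lower (log2 fold change -3.91 ± 0.33 SE), and Atp12a, a proton and potassium pump of the colon surface, was 279.7-fold higher (8.13 ± 0.53), with 3 stem cell and 5 enterocyte libraries. Markers of goblet cells (6 of 8) and enteroendocrine cells (8 of 12) were called higher in the enterocyte libraries too, and reads outside genes took a larger share of every enterocyte library than of any stem cell library. How calls were made, and the depth and background of the libraries, come first.

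Stem cell libraries held 19900282 to 22462518 reads on genes and enterocyte libraries 5950619 to 12966128. Of reads aligned to a single place, 45.2 to 48.5% and 66.8 to 83.1% lay outside annotated genes. To gauge the background, reads per kb of exon were averaged over 864 olfactory receptor and like genes, assumed silent in the gut. The assumption was not tested gene by gene, and any transcription of these genes would raise the estimate. This background was 0.0294 to 0.0643 CPM (counts scaled to a common library total) per kb in stem cells, 0.482 and 0.81 in Ent 4 and Ent 5, and 1.88 to 2.36 in Ent 1, Ent 2 and Ent 3. Below, the estimate for a gene is given as a percentage of its mean in enterocytes where it reaches 10%. Spearman's rho across genes, which are not independent replicates, was 0.925 to 0.945 between stem cell libraries, 0.921 to 0.958 between enterocyte libraries and 0.805 to 0.907 across cell types.

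Normalized counts below are counts scaled by TMM to a library of average size, and n is 3 for stem cells and 5 for enterocytes throughout. TMM factors were 0.898 to 0.951 in stem cells and 1.57, 1.45 and 1.65 in Ent 1, Ent 2 and Ent 3. In Ent 4 and Ent 5 they were 0.925 and 1.00. The order of enterocyte libraries for a gene, and their overlap with stem cells, can therefore change with another scaling. The test was the quasi-likelihood F test of edgeR, and a gene was called where its p, adjusted by the method of Benjamini and Hochberg, was under 0.01 and its mean over the 22 libraries reached 50 normalized counts. Of 22781 genes, 5058 were called (22.2%), 2448 of them higher in enterocytes (10.7%) and 2610 lower (11.5%). Counts of calls in the lists below are to be read beside these shares. The estimated background was under 20% of the enterocyte mean for 605 of the genes called higher and 1869 of those called lower, and at or above it for 1826 of the genes called higher. With TMM the median log2 fold change of the 13188 genes that reach this mean was -0.30. It was 0.23 with RLE factors, 0.13 with library totals, 0.06 with TMM factors from genes with little background, 0.23 with DESeq2 and 0.03 after subtraction of background. Fold changes below are to be read relative to that shift. The share of calls that were higher in enterocytes was 48.4% with TMM, 75.6% with RLE factors, 71% with totals, 68% with TMM from genes with little background, 73.3% with DESeq2 and 58.4% after subtraction. A call is said to hold where the gene was called in the same direction with all 6 scalings, which was so for 1474 genes higher (6.47%) and 1104 lower in enterocytes (4.85%). Libraries of both cell types did not overlap for 57.1% of genes tested, and 21.0% of genes tested were both called and without overlap (10.3% higher and 10.7% lower).

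**Figure D1:**
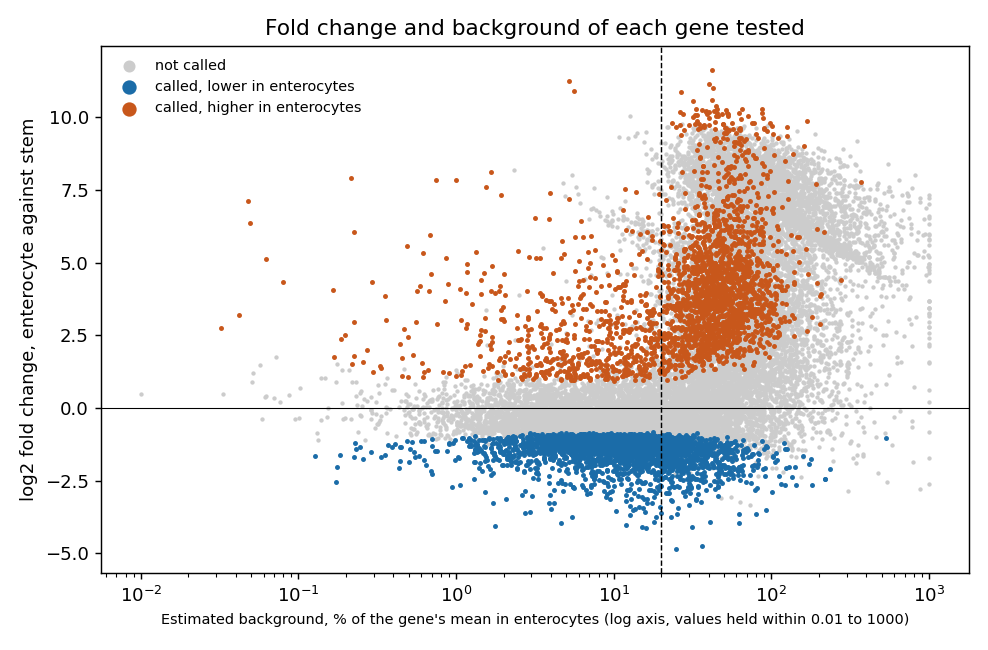
Each point is 1 of the genes tested that has an exon length; the horizontal axis gives the estimated background as a percentage of the gene's mean in enterocytes, on a log axis, and the vertical axis the log2 fold change of enterocytes against stem cells. Right of the dashed line at 20% lie 1826 of the 2448 genes called higher in enterocytes (orange), and left of it 1869 of the 2610 genes called lower (blue).

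The surface proteins used for the sort were measured first, as a check of the labels. Cd44, the hyaluronan receptor that set the gates, lies at chr2:102811141-102901665 of mm10 and had normalized counts of 9577, 9503 and 10725 in stem cells and 292, 343, 255, 342 and 480.5 in enterocytes. The cell types did not overlap, with means of 9935 ± 685 and 343 ± 85.3 (SD), and Cd44 was 29.1-fold lower in enterocytes (log2 fold change -4.86 ± 0.34 SE, adjusted p = 6.63e-17), with background at 24.7% of the enterocyte mean. Cd24a, which encodes the other gate protein, had 4258, 3806 and 4596 in stem cells and 591, 657, 513, 2453 and 1547 in enterocytes. It was 3.65-fold lower in enterocytes (log2 fold change -1.87 ± 0.44 SE, adjusted p = 0.000492). Ent 4 and Ent 5 held more Cd24a than the other enterocyte libraries and still lay below every stem cell library, and with these as the only enterocyte libraries the call was lost. That fit had fewer libraries and called 1731 genes in all, against 5058 with all 5 enterocyte libraries. Epcam, the epithelial adhesion molecule shared by both gates, had 21593, 25910.5 and 27335 in stem cells and 14781, 18854, 14329, 30352 and 23317 in enterocytes, which overlapped and did not differ past the threshold (log2 fold change -0.30 ± 0.44 SE, adjusted p = 0.568). Kit had 454, 205 and 542 in stem cells and 357, 291, 345, 851 and 699 in enterocytes and also overlapped (log2 fold change 0.35 ± 0.40 SE, adjusted p = 0.446), with background at 15.6%.

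All 7 stem cell markers were lower in enterocytes and 7 of 8 enterocyte markers were higher, and all 7 and 7 of these calls held. The stem cell markers include Cd44, which set the gates. Summed over its list, the level per kb of exon was 426 to 513 CPM in stem cells and 48.9 to 61 in enterocytes for stem cell markers, and 706 to 1313 against 3419.5 to 5588 for enterocyte markers. Markers of goblet cells, the mucus-secreting cells of the crypt, were also higher: 6 of 8 were called higher and none lower, all 6 calls held, and the sum per kb was 554 to 807 CPM in stem cells and 7967 to 15759 in enterocytes. In every enterocyte library the goblet cell sum was thus above the enterocyte sum, and goblet cell markers took 24051 to 50700 CPM of all reads there, against 5579.6 to 16316 in absorptive progenitors (AbsPro) and 46527 to 138440 in the secretory gate (SecPDG). Fcgbp, a mucus component and the goblet cell marker with the highest mean in enterocytes, had 9552, 5733 and 6900.1 in stem cells and 142977, 91575, 135299, 139144 and 235993 in enterocytes. Its level was 20.2-fold higher in enterocytes (log2 fold change 4.33 ± 0.95 SE, adjusted p = 0.000226). Enteroendocrine markers took 59.4 to 74.2 CPM in stem cells and 1062 to 4024 in enterocytes, with 8 of 12 called higher, and 80098 to 107700 in the enteroendocrine gate (EEC). Chgb, a granule protein of endocrine cells, had 282, 67.2 and 190.0 in stem cells and 16556, 7579, 3793, 5882 and 8349 in enterocytes. The gene was 47.6-fold higher in enterocytes (log2 fold change 5.57 ± 0.98 SE, 4.98 without Ent 1, adjusted p = 9.26e-06). Its mean was 8058 ± 5022 (SD) in AbsPro and 8432 ± 4867 in enterocytes, which did not differ past the threshold (adjusted p = 0.943). The labelled enterocyte libraries therefore hold the markers of their name together with goblet cell and enteroendocrine RNA, whose part in the results below was not tested.

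Markers of cells that the sort should leave out were low in both cell types and higher in enterocytes. The background estimate made up 36.2 to 84.5% of their summed levels there. In enterocytes, immune markers took 32.2 to 139 CPM, stromal markers 46.6 to 194, endothelial markers 22.6 to 94.5, neural and glial markers 16.7 to 74.3 and tuft cell markers 28.3 to 128, against 13.1 to 14.8, 10.1 to 25.1, 0.668 to 1.27, 3.77 to 7.61 and 4.57 to 6.45 in stem cells. Of these sums in enterocytes the background estimate made up 40.7 to 53.4%, 37 to 50.9%, 36.2 to 51.2%, 60.9 to 84% and 49.2 to 84.5%. Called higher were 2 of 12 immune, 3 of 8 stromal, 4 of 4 endothelial, 1 of 6 neural and glial and 5 of 9 tuft cell markers, each with a background of at least 20%. Of these calls 1, 2, 4, 1 and 3 held. After subtraction of background the median log2 fold changes of the lists were 3.34, 2.26, 6.89, 2.74 and 3.57. With Ent 4 and Ent 5 alone, the libraries of lowest background, the numbers called were 0, 0, 2, 0 and 0. That fit had fewer libraries and called 1731 genes in all, against 5058. Median log2 fold changes of these lists were 2.66, 2.05, 4.90, 2.35 and 2.99 there. With all 5 enterocyte libraries they were 3.69, 2.72, 5.74, 2.955 and 3.87. Among the members with the highest mean in enterocytes, Kdr, an endothelial receptor, had 0, 0 and 12.8 in stem cells and 199, 216, 218, 111 and 105 in enterocytes, and Ret, a receptor of enteric neurons, had 27.5, 22.4 and 29 in stem cells and 307, 210.0, 224, 107 and 172 in enterocytes, with background at 52.7% and 50%. For Kdr, Stem 3 was the only stem cell library with any count. For Dclk1 of tuft cells the background estimate came to 108% of the enterocyte mean, and its call did not hold. Itgam of myeloid cells was not called (log2 fold change 0.62 ± 0.43 SE, adjusted p = 0.203, background 37.8%), nor was Pdgfrb of pericytes (log2 fold change 1.08 ± 0.38 SE, adjusted p = 0.0122, but called higher with 4 of the 5 other scalings, adjusted p 0.00148 to 0.00965, background 27.3%), which was called without Ent 4 (1.16). No marker was at 0 in every enterocyte library, and Gng13, Rgs13, Il25 and Cck were at 0 in every stem cell library.

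**Figure D2:**
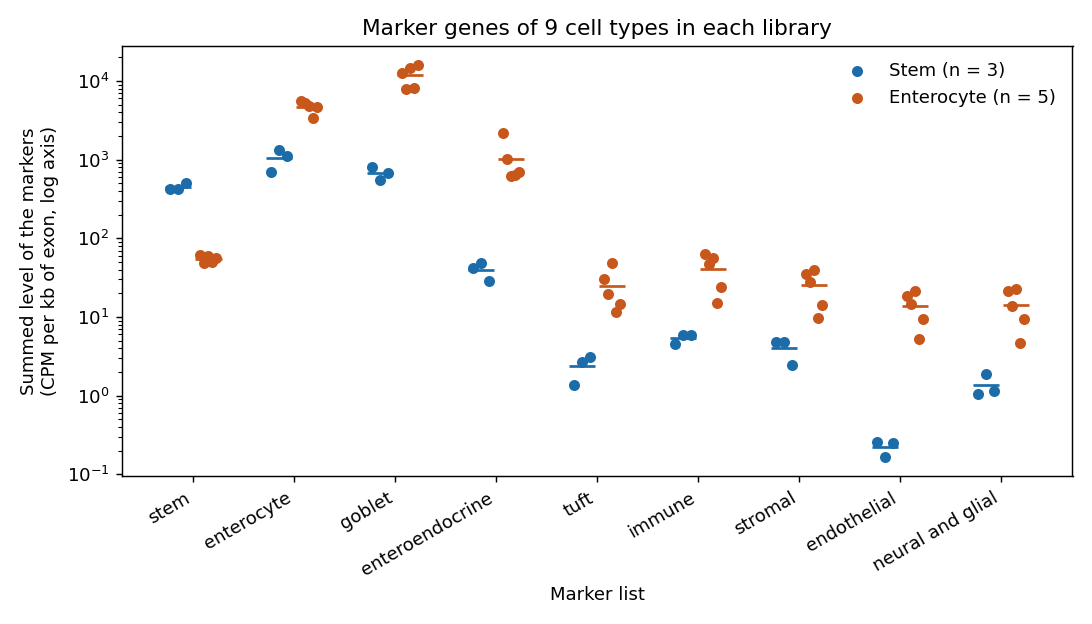
Points are libraries and bars their means; the vertical axis is the summed level of each marker list in CPM per kb of exon, on a log axis. Stem cell markers lie at 426 to 513 in stem cells and 48.9 to 61 in enterocytes, while goblet cell markers reach 7967 to 15759 in enterocytes, above the enterocyte markers at 3419.5 to 5588.

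Genes of the crypt base and of Wnt signalling were lower in enterocytes: 20 of 25 members tested were called lower and none higher, 18 of the calls held, and the median log2 fold change was -2.48 (all genes tested, 1.17; genes that reach a mean of 50, -0.30). Lgr5, the receptor for R-spondin that marks these stem cells, lies at chr10:115450311-115587780 and had 2594, 2006 and 3197 in stem cells and 234, 157, 187, 138 and 154 in enterocytes. It was 15-fold lower in enterocytes (log2 fold change -3.91 ± 0.33 SE, adjusted p = 1.38e-13), and 40.9% of what remained in enterocytes equals the background estimate. Axin2, a feedback inhibitor and direct target of Wnt, had 4499, 4155 and 5315 in stem cells and 281, 260.4, 273, 594 and 332 in enterocytes. Here it was 13.3-fold lower in enterocytes (log2 fold change -3.73 ± 0.32 SE, adjusted p = 1.38e-13), with background at 18.5%. Ent 4 held the most Axin2 among enterocytes, and no library of either cell type crossed into the range of the other. Slc12a2, a basolateral sodium, potassium and chloride carrier and the member with the highest mean count, had 26819.8, 27784 and 34623 in stem cells and 1767, 1833, 2088, 7179 and 6009 in enterocytes. By the fit it was 7.88-fold lower in enterocytes, with the same pair of libraries, Ent 4 and Ent 5, above the other enterocytes. Rnf43, which removes Wnt receptors from the surface, kept the highest mean of the stem cell markers in enterocytes. On average it was 5.42-fold lower, with 3703, 2817 and 3409.6 in stem cells and 567, 435, 412, 819 and 829 in enterocytes and background at 11.2%. With Ent 4 and Ent 5 as the only enterocyte libraries, 19 members were still called lower. Cd44, which set the gates, is among the 20 members called lower with all enterocyte libraries.

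The machinery of cell division was lower as well, with 37 of 41 DNA replication genes and 33 of 33 mitosis genes called lower and none called higher. Of these calls 31 and 26 held, and the median log2 fold changes were -2.19 and -2.21. Mcm6, a subunit of the replicative helicase and the replication gene with the highest mean count, had 4100.4, 5512 and 4839 in stem cells and 271, 257, 341, 740.2 and 684 in enterocytes. The count was 10.5-fold lower in enterocytes (log2 fold change -3.39 ± 0.33 SE, adjusted p = 1.36e-11), with background at 14.4%. The helicase subunits Mcm5 and Mcm4 were 9.58-fold and 9.17-fold lower, with background at 17.5% and 23.5%. Among mitosis genes, Top2a, the topoisomerase that untangles sister chromatids, had 4914, 8391 and 8668 in stem cells and 436, 754, 533, 1246 and 1173 in enterocytes. The transcript was 8.83-fold lower in enterocytes (log2 fold change -3.14 ± 0.35 SE, adjusted p = 3.28e-10). Ncapd2, a condensin subunit, and Bub1b, a spindle checkpoint kinase, were 6.89-fold and 5.67-fold lower, with background at 12.7% and 14.8%. Mki67, the proliferation antigen, had the highest mean count of the mitosis genes, with 18356, 22300 and 26134 in stem cells and 2312, 4300, 1568, 9412 and 6072 in enterocytes. Its mean level was 4.7-fold lower in enterocytes, with a spread there of 3152 (SD) around 4733. The highest enterocyte library for Mki67, Ent 4, still lay below every stem cell library.

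Cell cycle inhibitors did not move together: 4 of 17 members tested were called higher and 2 lower, and 4 and 0 of these calls held (6 to 8 higher and 1 to 3 lower with the other 5 scalings). Mxd1, a transcriptional partner of Max that opposes Myc, had 363, 486 and 397 in stem cells and 8859, 10687, 11381, 10351 and 9413 in enterocytes. It was 24.4-fold higher in enterocytes (log2 fold change 4.61 ± 0.41 SE, adjusted p = 7.59e-13), and all 5 enterocyte libraries lay above all 3 of stem cells. Cdkn2b, an inhibitor of G1 cyclin-dependent kinases, had 18.4, 32 and 9.43 in stem cells and 478, 494, 448, 666 and 444 in enterocytes. It was 25-fold higher in enterocytes (log2 fold change 4.64 ± 0.50 SE, adjusted p = 1.62e-10). Cdkn1a, a broad inhibitor of cyclin-dependent kinases, had 181, 123 and 172 in stem cells and 1060.3, 1155, 691, 1466 and 804 in enterocytes. Its level was 6.58-fold higher in enterocytes (log2 fold change 2.72 ± 0.44 SE, adjusted p = 2.42e-06). Ccng2, named to complete the count, was 3.6-fold higher. The genes called lower, Cdkn2c and Rbl1, had background at 51.4% and 11.9% and did not hold.

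**Figure D3:**
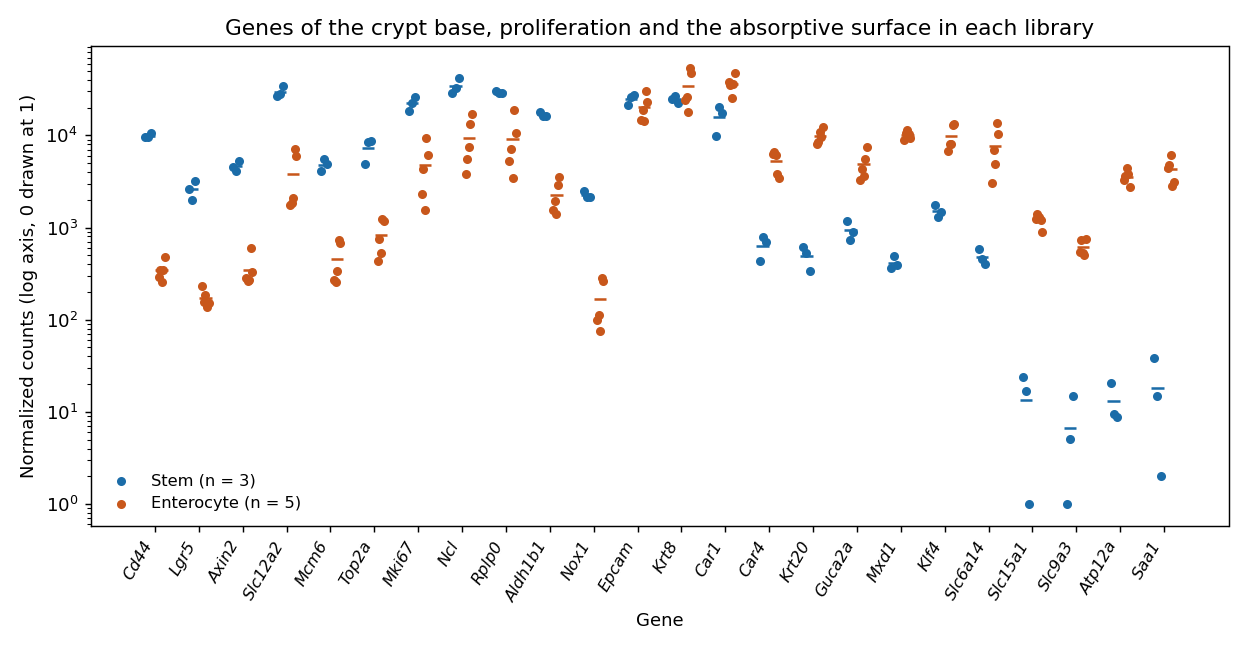
Normalized counts of 24 genes in each library, on a log axis, with points for libraries (3 of stem cells, 5 of enterocytes) and bars for means; values of 0 are drawn at 1. With TMM scaling, Cd44, Lgr5 and Nox1 fall from stem cells to enterocytes without overlap, and Epcam and Krt8 overlap. Slc15a1, Slc9a3, Atp12a and Saa1 lie under 50 in stem cells and at 498 or more in enterocytes.

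Genes for making ribosomes and proteins were lower, and in each list some of the calls did not hold. Of ribosome biogenesis genes 36 of 40 were called lower and 29 held, of ribosomal proteins 47 of 79 and 22, and of translation factors 24 of 36 and 15, with none called higher in these lists. Ncl, or nucleolin, the biogenesis gene with the highest mean count, had 28609, 33010.5 and 41731 in stem cells and 3795, 5561, 7397, 13282 and 17212 in enterocytes. The gene was 3.65-fold lower in enterocytes (log2 fold change -1.87 ± 0.42 SE, adjusted p = 0.000339). Mybbp1a, Nop56 and Nolc1, nucleolar proteins of rRNA production and processing, were 6.51-fold, 5.57-fold and 5.37-fold lower. Rplp0, an acidic protein of the large ribosomal subunit, had 30213, 28860.3 and 28843 in stem cells and 5216, 7177, 3436, 18903 and 10581 in enterocytes. Here it was 3.23-fold lower in enterocytes (log2 fold change -1.69 ± 0.44 SE, adjusted p = 0.00135). Enterocyte libraries spread over 3436 to 18903, with Ent 4 nearest to stem cells, and Rps2, Rps19 and Rpl18 (4.51-fold, 4.3-fold and 3.54-fold lower) had Ent 4 as the highest enterocyte library too. Median log2 fold changes of ribosomal proteins were -1.23 with TMM and -0.72 with RLE factors. With Ent 4 and Ent 5 alone 11 of 79 were called lower, in a fit with fewer libraries, and the median was -0.98. Many ribosomal protein genes have processed copies in the genome, and how reads of such copies were assigned can change their counts. Eef1a1, the elongation factor that brings tRNAs to the ribosome, had 61412, 64796 and 72320.5 in stem cells and 12042, 19227, 9821, 41379 and 23825 in enterocytes. By the fit it was 3.11-fold lower, a call that was lost without Stem 1, Ent 2, Ent 3 or Ent 5 (nearest to 0 with -1.46 without Ent 3), and Eef1g, Eef1d and Pabpc4 were 4.14-fold, 3.03-fold and 2.93-fold lower, the last with background at 12.6%.

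Splicing factors (35 of 49 called lower, 20 held), enzymes of nucleotide synthesis (17 of 22, 14 held) and chromatin proteins (26 of 31, 22 held) followed the same direction, again with no call higher. Srsf7, which binds exonic splicing enhancers, had 1809, 2942 and 3831 in stem cells and 539.6, 804, 437, 1255 and 946 in enterocytes. On average it was 3.59-fold lower in enterocytes (log2 fold change -1.84 ± 0.31 SE, adjusted p = 4.77e-06). Snrpb, a core protein of spliceosomal particles, and Hnrnpa0 were 3.37-fold and 3.91-fold lower, while the call of Hnrnpa2b1, the member with the highest mean count at 18702 ± 3561 and 7734 ± 3415 (SD), did not hold and was lost without Ent 2 or Ent 3 (nearest to 0 with -1.15 without Ent 3). In nucleotide synthesis, Shmt2 and Shmt1, which load folate with single carbons, were 6.86-fold and 5.66-fold lower, with background at 14.4% for Shmt2. Mthfd1, the folate enzyme with the highest mean, had 3537, 4139.9 and 4054 in stem cells and 619, 686, 536, 1207 and 1214 in enterocytes. The count was 4.59-fold lower, and Gart of purine synthesis was 5.41-fold lower, with background at 10.8%. Lmnb1, or lamin B1 of the nuclear envelope, had 6737, 6519 and 6701 in stem cells and 942, 818, 608, 1600.2 and 1578 in enterocytes. The transcript was 6.01-fold lower in enterocytes (log2 fold change -2.59 ± 0.31 SE, adjusted p = 3.81e-09). Uhrf1, which guides maintenance methylation, was 10.8-fold lower with background at 25.7%, and H2afx and the histone chaperone Nap1l1 were 7.64-fold and 6.37-fold lower, Nap1l1 with background at 10.1%. With Ent 4 and Ent 5 alone the numbers called lower were 13, 12 and 25, in a fit with fewer libraries. The median log2 fold changes were -1.05, -1.385 and -1.87 there, against -1.32, -1.62 and -2.01 with all 5 enterocyte libraries.

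**Figure D4:**
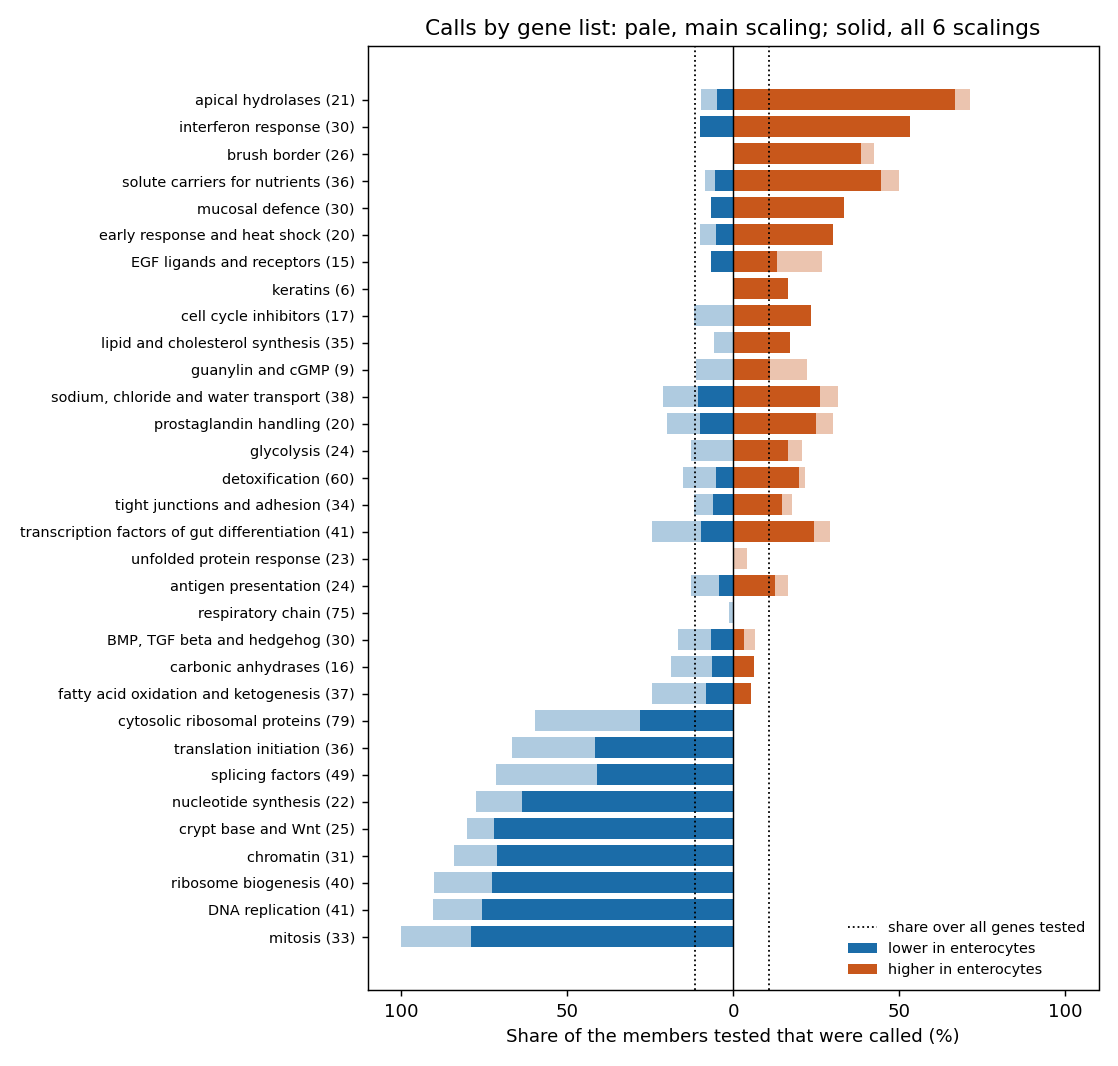
Bars give, for each of the 32 gene lists (members tested in brackets), the share of members called lower (left, blue) or higher (right, orange) in enterocytes; pale bars are calls with the main scaling, solid bars calls with all 6 scalings, and dotted lines the shares over all genes tested (11.5% lower, 10.7% higher). Mitosis (33 of 33 lower) and apical hydrolases (15 of 21 higher) stand at the ends; in the lists of carbonic anhydrases, fatty acid oxidation, the respiratory chain and BMP signalling the majority turned under at least 1 other scaling.

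Transport of salt and water is the main work of the colon surface, and in this list 12 of 38 members tested were called higher and 8 lower, while 10 and 4 of these calls held (18 to 20 higher and 5 to 8 lower with the other 5 scalings). Atp12a, the colonic proton and potassium pump, lies at chr14:56365068-56388550 and had the largest increase of all genes under the rule for naming, with 20.7, 9.6 and 8.76 in stem cells and 3273, 3641, 4377, 3827 and 2739 in enterocytes. It was 279.7-fold higher in enterocytes (log2 fold change 8.13 ± 0.53 SE, adjusted p = 1.41e-18), and the highest stem cell library was far under the lowest enterocyte library. Slc9a3, the apical exchanger that takes up sodium for protons, had 0, 5.12 and 14.8 in stem cells and 541, 735, 529, 498 and 752 in enterocytes. Its mean level was 87.1-fold higher in enterocytes (log2 fold change 6.45 ± 0.64 SE, 7.52 without Stem 3, adjusted p = 5.77e-12). Other members that passed the test and held included the epithelial sodium channel subunits Scnn1b (11.7-fold higher, background 16%) and Scnn1a (5.05-fold higher), the water channel Aqp8 (16.4-fold higher) and the chloride and bicarbonate exchanger Slc26a3 (6.75-fold higher), which were chosen after their values were seen. Aqp1, another water channel, moved the other way, with 2941, 2719 and 3114 in stem cells and 99.4, 79.2, 97, 149 and 125 in enterocytes. It was 26.6-fold lower in enterocytes (log2 fold change -4.73 ± 0.37 SE, adjusted p = 8.36e-15), with background at 36.1%. The chloride channel Cftr and the potassium channel subunits Kcnq1 and Kcne3 were also lower, by 3-fold, 6.04-fold and 3.48-fold, and held.

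Carbonic anhydrases, which form bicarbonate for these exchangers, had 1 call higher and 3 lower of 16 tested, and 1 each held (2 to 5 higher and 1 to 2 lower with the other 5 scalings). Car4, anchored on the apical membrane, had 428, 787 and 690.0 in stem cells and 6269, 6591, 6103, 3773 and 3491 in enterocytes. It was 8.23-fold higher in enterocytes (log2 fold change 3.04 ± 0.40 SE, adjusted p = 2.72e-08). Car1, the member with the highest mean count and the enterocyte marker with the highest mean, had 9784, 20154 and 17388 in stem cells and 37907, 35596, 25141, 35674 and 47977 in enterocytes, without overlap and short of the threshold (log2 fold change 1.21 ± 0.56 SE, adjusted p = 0.055, but called higher with all 5 other scalings, at 1.65 to 1.86, adjusted p 0.000769 to 0.00227). Car8, which lacks the catalytic activity of the family, had 906, 853 and 1141 in stem cells and 370.0, 290.3, 144, 392 and 324 in enterocytes. Its level was 3.2-fold lower in enterocytes (log2 fold change -1.68 ± 0.35 SE, adjusted p = 0.000102), with background at 19.1%, and Car12 was 3.25-fold lower in a call that did not hold. Which direction had more calls turned with RLE factors, library totals, DESeq2 and TMM from genes with little background.

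Among nutrient carriers 18 of 36 members tested were called higher and 3 lower, and 16 and 2 of these calls held. Slc15a1, the proton-coupled peptide carrier, had 23.7, 16.6 and 0 in stem cells and 1237, 1393, 1312, 1219 and 894 in enterocytes. The gene was 91.6-fold higher in enterocytes (log2 fold change 6.52 ± 0.56 SE, 7.13 without Stem 1 and 5.74 without Stem 3, adjusted p = 1.13e-13). Slc34a2, a sodium and phosphate carrier, had 45.1, 23 and 6.74 in stem cells and 620.1, 836, 796, 797 and 623 in enterocytes. Here it was 30.3-fold higher in enterocytes (log2 fold change 4.92 ± 0.56 SE, 5.60 without Stem 1 and 4.28 without Stem 3, adjusted p = 4.21e-10). Slc6a14, which takes up neutral and basic amino acids and had the highest mean of the list, had 581, 451 and 406 in stem cells and 3030.1, 6857, 4858, 13617 and 10398 in enterocytes. By the fit it was 16.2-fold higher in enterocytes (log2 fold change 4.02 ± 0.43 SE, adjusted p = 1.98e-10). All stem cell libraries lay below all enterocyte libraries for these carriers, and within enterocytes Ent 4 and Ent 5 held the most Slc6a14 and Ent 1 the least. Lower were the amino acid carriers Slc7a5, Slc1a5 and Slc38a1, by 4.84-fold, 2.55-fold and 1.87-fold, of which Slc38a1 did not hold, and Slc7a5 and Slc38a1 had background at 49.9% and 11%.

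Brush border genes were called in 1 direction: 11 of 26 higher and none lower, and 10 held (16 to 18 higher and 0 lower with the other 5 scalings). Krt20, a keratin of differentiated gut epithelium that is counted in this list and among keratins, had 618, 528 and 342 in stem cells and 8049, 8431, 11012, 9704 and 12343 in enterocytes. On average it was 20-fold higher in enterocytes (log2 fold change 4.32 ± 0.50 SE, adjusted p = 1.24e-09). Ceacam20, an adhesion molecule of microvilli, and Tmigd1, a membrane protein of the immunoglobulin family, were 36.6-fold and 35.7-fold higher. Ceacam20 had 78, 8.96 and 40.4 in stem cells and 1536, 1771, 1478, 1413 and 1297 in enterocytes, with a wide gap between the cell types, and its log2 fold change was 5.20 ± 0.44 (SE, 5.94 without Stem 1 and 4.54 without Stem 2). Ceacam1, the member with the highest mean count, had 18063, 21326 and 19896 in stem cells and 32741, 37247, 33249.7, 44130.2 and 55439 in enterocytes, without overlap and short of the threshold (log2 fold change 1.04 ± 0.55 SE, adjusted p = 0.0937, but called higher with all 5 other scalings, at 1.44 to 1.67, adjusted p 3.69e-05 to 0.000655). Of 21 hydrolases of the apical membrane 15 were called higher and 2 lower, and 14 and 1 of these calls held (15 to 18 higher and 1 to 2 lower with the other 5 scalings). Nt5e, which makes adenosine from AMP, had 51.3, 32 and 11.5 in stem cells and 579, 821, 769, 1258 and 982 in enterocytes. The count was 28.5-fold higher in enterocytes (log2 fold change 4.83 ± 0.51 SE, 4.22 without Stem 3, adjusted p = 4.99e-11). The meprin subunit Mep1b and the dipeptidase Dpep1 were 11.8-fold and 6.44-fold higher. Mgam, which digests maltose and had the highest mean, had 9379.5, 9834 and 10946 in stem cells and 2689, 3523, 2246, 7169 and 5047 in enterocytes. The transcript was 2.43-fold lower in enterocytes (log2 fold change -1.28 ± 0.34 SE, adjusted p = 0.0016), the opposite direction, and held, while Dpp4, also lower, did not.

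In the guanylin pathway, where secreted peptides raise cGMP to drive fluid secretion, 2 of 9 members tested were called higher and 1 lower, and 1 and 0 of these calls held (3 to 4 higher and 0 to 1 lower with the other 5 scalings). Guca2a, or guanylin, had 1175, 729.8 and 889 in stem cells and 3273, 4319.5, 3662, 5538 and 7439.6 in enterocytes. Its mean level was 5.21-fold higher in enterocytes (log2 fold change 2.38 ± 0.44 SE, adjusted p = 2.03e-05). Its receptor Gucy2c had 6709.7, 6685 and 6808 in stem cells and 3359, 3818, 2202, 6377 and 4357 in enterocytes, without overlap and short of the threshold (log2 fold change -0.74 ± 0.37 SE, adjusted p = 0.0736). Prkg1, a cGMP-dependent kinase, was called higher with background at 93.2% and did not hold, and neither did Pde5a, which breaks down cGMP and was 2.38-fold lower. Of 6 keratins 1, Krt20, was called (2 higher and 0 to 1 lower with the other 5 scalings). Krt8, the one with the highest mean count, had 24879.8, 26968 and 22301 in stem cells and 24174, 25916, 17838, 54202 and 47602 in enterocytes. With TMM scaling Ent 4 and Ent 5 lay above, Ent 3 below and the others within the range of stem cells. Its log2 fold change was 0.46 ± 0.50 (SE, adjusted p = 0.423, but called higher with all 5 other scalings, at 0.75 to 1.01, adjusted p 0.000429 to 0.00408). Of junction and adhesion genes 6 of 34 members tested were called higher and 4 lower (all genes tested, 10.7% and 11.5%). Of these calls 5 and 2 held (11 to 13 higher and 2 to 3 lower with the other 5 scalings). Lama3, a laminin chain of the basement membrane, had 72.7, 44.2 and 14.2 in stem cells and 2398, 3814, 2634, 2611 and 1248 in enterocytes. It was 59.4-fold higher in enterocytes (log2 fold change 5.89 ± 0.50 SE, 5.29 without Stem 3, adjusted p = 1.17e-13). Cldn4, a sealing claudin, had 139, 87.1 and 78.8 in stem cells and 1829, 1319, 1922, 1605 and 1112 in enterocytes. Its level was 15.5-fold higher in enterocytes (log2 fold change 3.95 ± 0.45 SE, adjusted p = 6.68e-10). Cldn15, a pore-forming claudin, had 3313, 3514 and 3665 in stem cells and 605, 615, 256, 809.8 and 562 in enterocytes. The gene was 6.14-fold lower in enterocytes (log2 fold change -2.62 ± 0.32 SE, adjusted p = 3.81e-09). Dsp, or desmoplakin, had 21825, 22784 and 23724 in stem cells and 15113, 20143, 17635, 37987 and 27276 in enterocytes and overlapped (log2 fold change 0.05 ± 0.45 SE, adjusted p = 0.925, but called higher with DESeq2, at 0.55, adjusted p = 0.00689).

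Genes of fat oxidation and of mitochondrial respiration had few calls that held. In fatty acid oxidation and ketogenesis 2 of 37 members tested were called higher and 9 lower, and 2 and 3 of these calls held (3 to 5 higher and 3 to 9 lower with the other 5 scalings). Acot1, a cytosolic acyl-CoA thioesterase, was 15.6-fold lower with background at 61.9%, and Eci1 and Acsl1 were 2.95-fold and 2.27-fold lower, Acsl1 with background at 14.9%. With DESeq2 the majority of calls in this list turned, to 5 higher and 4 lower. Of 75 respiratory chain subunits 1, Ndufv1, was called lower (2.12-fold), did not hold and was lost without Stem 1, Ent 2 or Ent 3 (nearest to 0 with -0.95 without Ent 3). Atp5a1 of the ATP synthase had 26259.8, 29186 and 26755 in stem cells and 10146, 12048, 9627, 23519 and 22817 in enterocytes, without overlap and short of the threshold (log2 fold change -0.81 ± 0.45 SE, adjusted p = 0.111). The median log2 fold change of the subunits was -0.27, against -0.30 for genes that reach a mean of 50, and with RLE factors, totals, DESeq2 and subtracted background the calls turned to a majority higher (3 to 7 higher and 0 to 4 lower with the other 5 scalings).

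The next 3 lists stand beside 10.7% of all genes tested called higher and 11.5% called lower. In glycolysis 5 of 24 members tested were called higher and 3 lower. Of these calls 4 and 0 held (7 to 10 higher and 0 to 3 lower with the other 5 scalings). Eno3, an enolase, had 131, 50.6 and 82.2 in stem cells and 298, 435, 388, 884 and 750.5 in enterocytes. Here it was 6.4-fold higher in enterocytes (log2 fold change 2.68 ± 0.43 SE, adjusted p = 1.95e-06). Pfkfb3 and Pfkfb4, which set the level of an activator of glycolysis, were 11.3-fold and 6.91-fold higher with background at 27.2% and 14.7%. Aldoa, the member with the highest mean count, for which no exon length was found, had 7053, 6318 and 5522 in stem cells and 5829, 6082, 4349, 10099.9 and 8281 in enterocytes, and its libraries overlapped (log2 fold change 0.14 ± 0.37 SE, adjusted p = 0.758, but called higher with DESeq2, at 0.64, adjusted p = 0.00981). Lipid and cholesterol synthesis had 6 calls higher and 2 lower of 35 tested, and 6 and 0 of these calls held (11 to 16 higher and 0 to 2 lower with the other 5 scalings). Apoa1, listed here though it is the main protein of high density lipoprotein, had 0, 1.28 and 12.1 in stem cells and 208, 129.6, 147, 232 and 309 in enterocytes. By the fit it was 43-fold higher in enterocytes (log2 fold change 5.43 ± 0.81 SE, 4.79 without Stem 2 and 7.74 without Stem 3, adjusted p = 3.29e-07). The desaturase Scd1 had 91, 60.2 and 95 in stem cells and 645, 412, 342, 1212 and 886 in enterocytes. On average it was 8.55-fold higher, with background at 10.4%, and Msmo1 of sterol synthesis was 3.15-fold higher. Scd2 had the highest mean, with 6135, 6796 and 4139 in stem cells and 6990.4, 5915, 4786, 18204 and 13535 in enterocytes. With TMM scaling Ent 1, Ent 4 and Ent 5 lay above all stem cell libraries and the others among them. Its log2 fold change was 0.80 ± 0.42 (SE, adjusted p = 0.0899, but called higher with all 5 other scalings, at 1.05 to 1.31, adjusted p 0.000254 to 0.00121). Among detoxification genes 13 of 60 members tested were called higher and 9 lower, and 12 and 3 of these calls held (17 to 23 higher and 4 to 7 lower with the other 5 scalings). Cyp2d34 and Cyp3a13, cytochromes of drug metabolism, were 29.3-fold and 10.1-fold higher, the first with 107, 23.7 and 26.3 in stem cells and 1426, 2144, 1110.2, 1685 and 1005 in enterocytes (log2 fold change 4.88, 5.88 without Stem 1). Aldh1b1, a mitochondrial aldehyde dehydrogenase with the highest mean of the list, had 18023, 16351 and 16348 in stem cells and 1566, 1929.7, 1416, 2919 and 3539 in enterocytes. The count was 7.44-fold lower in enterocytes (log2 fold change -2.90 ± 0.37 SE, adjusted p = 1.8e-08).

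Transcription factors of gut differentiation went both ways, as 12 of 41 members tested were called higher and 10 lower, and 10 and 4 of these calls held (13 to 17 higher and 4 to 9 lower with the other 5 scalings). Klf4, a zinc finger factor of the upper crypt, had 1737, 1317 and 1480.4 in stem cells and 6796, 8143, 8139, 12879 and 13209 in enterocytes. The transcript was 6.51-fold higher in enterocytes (log2 fold change 2.70 ± 0.42 SE, adjusted p = 1.23e-06). Sox4, a factor of progenitors, had 3908, 2852 and 3938 in stem cells and 329, 193, 144, 473 and 302 in enterocytes. Its mean level was 12.4-fold lower in enterocytes (log2 fold change -3.63 ± 0.37 SE, adjusted p = 4.24e-11), with background at 25.1%. Klf5, the factor with the highest mean count, had 16434, 15704 and 15256 in stem cells and 6139, 7719, 5945, 15150.4 and 12686 in enterocytes, without overlap and short of the threshold (log2 fold change -0.73 ± 0.40 SE, adjusted p = 0.104). Atoh1 and Spdef, factors of the secretory and goblet lineage, were 4.33-fold and 2.89-fold higher and both held, in the libraries that also held goblet cell markers. In BMP, TGF beta and hedgehog signalling 2 of 30 members tested were called higher and 5 lower (all genes tested, 10.7% and 11.5%). Of these calls 1 and 2 held (2 to 6 higher and 2 to 3 lower with the other 5 scalings). The majority turned with RLE factors, totals, TMM from genes with little background and DESeq2. Bmp2, a ligand that limits crypt stem cells, had 0, 41.6 and 34.4 in stem cells and 964, 855, 972, 991 and 666 in enterocytes. It was 33.5-fold higher in enterocytes (log2 fold change 5.07 ± 0.53 SE, adjusted p = 9.73e-11). The study reports very high Bmp2 in enteroendocrine cells. Markers of those cells were also present in the enterocyte libraries, and their part in the Bmp2 level was not tested. The receptors Smo and Tgfbr2 were 5.88-fold and 3.33-fold lower, with background at 23% and 15.2%, and held, whereas Smad4, the shared mediator, was 2.11-fold lower, did not hold and was lost without Stem 1, Ent 2 or Ent 3 (nearest to 0 with -0.89 without Ent 3).

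Of EGF ligands and receptors 4 of 15 were called higher and 1 lower, and 2 and 1 of these calls held (3 to 8 higher and 1 lower with the other 5 scalings). Areg, or amphiregulin, a ligand of Egfr, had 28.3, 7.68 and 43.1 in stem cells and 357, 452, 253, 363 and 371 in enterocytes. Its level was 13.7-fold higher in enterocytes (log2 fold change 3.78 ± 0.53 SE, 3.16 without Stem 2, adjusted p = 1.05e-07). Errfi1, an inhibitor of the receptor, was 2.65-fold higher. Lrig1, another inhibitor of these receptors and also in the crypt base list, had 6656, 5301 and 6715 in stem cells and 819, 727, 594, 2198 and 1379 in enterocytes. The gene was 5.43-fold lower in enterocytes (log2 fold change -2.44 ± 0.33 SE, adjusted p = 5.84e-08). Erbb3, a receptor without much kinase activity, had the highest mean, with 6158, 5381 and 6397 in stem cells and 3756, 5331, 3311, 7427 and 4085 in enterocytes, which overlapped (log2 fold change -0.32 ± 0.33 SE, adjusted p = 0.394).

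In mucosal defence 10 of 30 members tested were called higher and 2 lower, and all of these calls held (14 to 16 higher and 2 to 3 lower with the other 5 scalings). Saa1, an acute phase protein that epithelium makes in contact with microbes, lies at chr7:46740497-46742980 and had 38.2, 14.7 and 2.02 in stem cells and 4438, 4749, 6169, 2855 and 3128 in enterocytes. It was 242-fold higher in enterocytes (log2 fold change 7.92 ± 0.51 SE, 8.95 without Stem 1 and 7.22 without Stem 3, adjusted p = 1.07e-18), the largest increase after Atp12a among genes named by size, and no library overlapped. Reg3b, a bactericidal lectin, had 138, 30.1 and 33.7 in stem cells and 1420, 1326, 392, 985 and 973 in enterocytes. Here it was 15.6-fold higher in enterocytes (log2 fold change 3.97 ± 0.50 SE, 4.99 without Stem 1, adjusted p = 8.06e-09). Nox1, the epithelial NADPH oxidase, moved the other way, with 2522, 2123 and 2172 in stem cells and 99.4, 114, 76.3, 285 and 266 in enterocytes. It was 13.5-fold lower in enterocytes (log2 fold change -3.76 ± 0.34 SE, adjusted p = 6.66e-13), with background at 23%, and Nlrp6 was the other member lower (4.14-fold). Dmbt1, a secreted scavenger protein with the highest mean, had 157401, 162153 and 132935 in stem cells and 72228, 87347, 32571, 95189.5 and 68914 in enterocytes, without overlap and short of the threshold (log2 fold change -1.08 ± 0.66 SE, adjusted p = 0.144).

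Interferon-responsive genes were called higher in 16 of 30 cases and lower in 3, with a median log2 fold change of 1.14 against -0.30 for genes that reach a mean of 50, and all of these calls held. For all 16 genes called higher the background was under 20% of the enterocyte mean. Rsad2, or viperin, an antiviral enzyme, had 20.7, 25.6 and 30.3 in stem cells and 419.7, 515, 625, 350.2 and 497 in enterocytes. By the fit it was 18.7-fold higher in enterocytes (log2 fold change 4.22 ± 0.49 SE, adjusted p = 1.04e-09), with background at 11.9%. Zbp1, a sensor of Z-form nucleic acids, had 81.9, 38.4 and 34.4 in stem cells and 531, 711, 628, 524 and 1129.9 in enterocytes. On average it was 13.9-fold higher in enterocytes (log2 fold change 3.80 ± 0.47 SE, adjusted p = 5.98e-09). Ifitm3, which restricts virus entry, went down, with 1331, 1356 and 1463 in stem cells and 30.7, 57.4, 85.5, 73 and 180.0 in enterocytes. It was 16.3-fold lower in enterocytes (log2 fold change -4.03 ± 0.40 SE, adjusted p = 2.33e-11), with background at 12%, and Ifitm2 (5.26-fold) and Irf8 (3.16-fold) were the other members lower. Ifngr1, the receptor subunit with the highest mean, had 2644, 2428 and 2844 in stem cells and 2017, 2881, 3501, 4181 and 4746 in enterocytes and overlapped (log2 fold change 0.39 ± 0.33 SE, adjusted p = 0.29, but called higher with all 5 other scalings, at 0.78 to 1.01, adjusted p 0.00064 to 0.00268). With Ent 4 and Ent 5 alone 12 members were called higher and 3 lower.

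In antigen presentation 4 of 24 members tested were called higher and 3 lower (all genes tested, 10.7% and 11.5%). Of these calls 3 and 1 held (7 to 10 higher and 1 lower with the other 5 scalings). Without the 2 enterocyte libraries of highest background, Ent 1 and Ent 3, the majority turned, to 1 higher and 2 lower. Cd74, the invariant chain of class II molecules, had 936, 1639 and 1749 in stem cells and 319, 369, 217, 252 and 260.3 in enterocytes. The count was 5.1-fold lower in enterocytes (log2 fold change -2.35 ± 0.33 SE, adjusted p = 1.94e-07). H2-Q1, a class I molecule of a family with near-identical copies, had 4.59, 47.4 and 6.06 in stem cells and 329, 254, 355, 225 and 180.0 in enterocytes. The transcript was 13.1-fold higher (log2 fold change 3.72, 5.48 without Stem 2 and 3.09 without Stem 3) with background at 11.4%, which is uncertain because reads can be split among such copies, and H2-T10 had background at 57.3%, did not hold and was lost without Stem 1, Stem 2, Ent 1, Ent 2, Ent 3 or Ent 5 (nearest to 0 with 2.84 without Stem 1). H2-K1, the class I gene with the highest mean, had 5037, 5672 and 5299 in stem cells and 7209.7, 7679.9, 6747, 8578 and 8244 in enterocytes, without overlap and short of the threshold (log2 fold change 0.53 ± 0.37 SE, adjusted p = 0.21, but called higher with all 5 other scalings, at 0.96 to 1.18, adjusted p 1e-05 to 0.000506). Of prostaglandin genes 6 of 20 were called higher and 4 lower, and 5 and 2 of these calls held (5 to 8 higher and 2 to 4 lower with the other 5 scalings). Slco2a1, the carrier that takes up prostaglandins, had 48.2, 48 and 33.7 in stem cells and 1046, 1114, 935, 818 and 601 in enterocytes. Its mean level was 20.9-fold higher in enterocytes (log2 fold change 4.38 ± 0.43 SE, adjusted p = 2.06e-11), with background at 11.9%. Pla2g4a, the phospholipase that frees arachidonic acid, had 1814, 1175 and 1813 in stem cells and 322, 338, 365, 751 and 676 in enterocytes. It was 3.26-fold lower in enterocytes (log2 fold change -1.70 ± 0.31 SE, adjusted p = 1.33e-05). Lta4h was 2.02-fold lower in a call that did not hold and was lost without Stem 1, Ent 2 or Ent 3 (nearest to 0 with -0.87 without Ent 3).

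Early response and heat shock genes, which also rise with handling of tissue, were listed as signs of sample quality. In this list 6 of 20 members tested were called higher and 2 lower, and 6 and 1 of these calls held (6 to 8 higher and 1 to 2 lower with the other 5 scalings). Fos, the immediate early factor, had 308, 309.8 and 736 in stem cells and 1872, 1805, 1322, 1543 and 1252 in enterocytes. Its level was 3.44-fold higher in enterocytes (log2 fold change 1.78 ± 0.41 SE, adjusted p = 0.000409). Atf3 had 154, 53.8 and 171 in stem cells and 708, 592, 913, 481 and 489 in enterocytes. The gene was 5.1-fold higher in enterocytes (log2 fold change 2.35 ± 0.39 SE, adjusted p = 3.14e-06). For both genes the cell types did not overlap, and the call of Fos was lost without Stem 2 (nearest to 0 with 1.44). With Ent 4 and Ent 5 alone 0 members were called higher and 1 lower, in a fit with fewer libraries. The chaperone Hsph1 had 1884, 3023 and 2899.5 in stem cells and 564, 921, 344, 776 and 1307 in enterocytes. Here it was 3.34-fold lower in enterocytes (log2 fold change -1.74 ± 0.32 SE, adjusted p = 2.37e-05). Hspa8, the one with the highest mean count, had 17926, 20778 and 22843 in stem cells and 3796, 6989, 5519, 11847 and 15786 in enterocytes. By the fit it was 2.33-fold lower in a call that did not hold and was lost without Stem 1, Ent 2 or Ent 3 (nearest to 0 with -1.09 without Ent 3). Of 23 genes of the unfolded protein response, 1, Ddit3, was called higher (2.36-fold), did not hold and was lost without Stem 2, Stem 3, Ent 1, Ent 3 or Ent 5 (nearest to 0 with 0.79 without Stem 2). With the other 5 scalings 6 to 10 higher and 0 lower were called. Hsp90b1, a chaperone of the endoplasmic reticulum, had 13650.5, 18492 and 18937 in stem cells and 8511, 9491, 7439, 15304 and 23968 in enterocytes, which overlapped (log2 fold change -0.40 ± 0.45 SE, adjusted p = 0.444).

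The 10 largest increases and the 10 largest decreases were taken over all genes, among called genes without overlap, with a mean of 500 or more in the higher cell type and background under 20% of that mean. The increases, in order, were Atp12a (279.7-fold), Saa1 (242-fold), Tgm3 (229-fold), Sval1 (228-fold), Nts (192-fold), Cyp2d12 (168-fold), Spink1 (159-fold), 2010109I03Rik (145-fold), Mptx1 (139-fold) and Gcnt1 (112-fold). All 10 held, and since stem cells had few counts of most of them, the sizes move with the stem cell libraries that are left out. The log2 fold change was 7.83, 7.02 without Stem 3 for Sval1, 7.40, 6.74 without Stem 2 and 10.23 without Stem 3 for Cyp2d12, 7.31, 8.08 without Stem 1 and 6.65 without Stem 2 for Spink1 and 7.18, 8.02 without Stem 2 and 6.40 without Stem 3 for 2010109I03Rik. For Gcnt1 (log2 fold change 6.81, 6.05 without Stem 2, background 11.5%), Stem 3 was the only stem cell library with any count. Tgm3, a transglutaminase that cross-links proteins, had 29.8, 32 and 20.2 in stem cells and 4058, 5844, 5376, 11007 and 5083 in enterocytes. On average it was 229-fold higher in enterocytes (log2 fold change 7.84 ± 0.52 SE, adjusted p = 3.68e-18). Gcnt1 makes the core of branched O-glycans, Spink1 inhibits trypsin, Nts is the hormone neurotensin and Cyp2d12 is a cytochrome of the same family as Cyp2d34. Nts, an enteroendocrine marker here, had 0, 16.6 and 0.674 in stem cells and 1591, 902, 705, 716 and 2211 in enterocytes, in libraries that held other enteroendocrine markers as well (log2 fold change 7.59, 11.14 without Stem 2 and 6.85 without Stem 3). Mptx1, a pentraxin-like gene, had 85.7, 419.9 and 24.9 in stem cells and 4708, 2309, 11381, 10394 and 97085 in enterocytes (log2 fold change 7.12, 8.63 without Stem 2, 6.33 without Stem 3 and 5.31 without Ent 5). Ent 5 was far above the others, which still lay above all stem cell libraries. The decreases, in order, were Cd44 (29.1-fold), Aqp1 (26.6-fold), Hist1h3c (17.3-fold), Rgcc (17-fold), Clca3b (16.7-fold), Ifitm3 (16.3-fold), Acot1 (15.6-fold), Hist1h1b (15.5-fold), Cnn3 (15.1-fold) and Lgr5 (15-fold), and all 10 held. Clca3b, of the family of secreted chloride channel accessory proteins, had 53842, 44544 and 44962 in stem cells and 1376, 1887, 1562, 2829.8 and 6702 in enterocytes. The count was 16.7-fold lower in enterocytes (log2 fold change -4.06 ± 0.48 SE, adjusted p = 1.83e-09). Hist1h3c and Hist1h1b encode histones made in S phase, and Hist1h1b had 2917, 4948 and 3621 in stem cells and 114, 184, 89, 619 and 210.5 in enterocytes (log2 fold change -3.95, -4.69 without Ent 4). Rgcc, a regulator of the cell cycle, Cnn3, a calponin of actin filaments, and Hist1h3c had background at 15.2%, 18.1% and 16%, and Cd44 was used for the sort itself.

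Absorptive progenitors, which lie between the 2 cell types in the gate for Cd44, were set beside them for genes named above, with n = 3, in a comparison that shares the enterocyte libraries. Cd44 was 9935 ± 685 (SD) in stem cells, 2424 ± 569 in AbsPro and 343 ± 85.3 in enterocytes, and Lgr5 was 2599 ± 596, 608 ± 263 and 174 ± 38. Mcm6 was 4817 ± 706, 2357 ± 535 and 459 ± 235 in the same order, so that AbsPro lay between the other groups for these genes. For Cd44 the gates set this order in advance at the protein level. Against AbsPro, enterocytes were 7.1-fold lower in Cd44 (adjusted p = 1.43e-08), 3.51-fold in Lgr5 (adjusted p = 0.000135) and 5.14-fold in Mcm6 (adjusted p = 9.42e-07). Atp12a was 13 ± 6.64, 26.2 ± 12.8 and 3571 ± 613, Saa1 was 18.3 ± 18.4, 24 ± 17 and 4268 ± 1339, and Slc15a1 was 13.5 ± 12.2, 32.6 ± 23.1 and 1211 ± 189.9. All AbsPro means of these surface genes were under 50 normalized counts, and enterocytes were 137-fold (adjusted p = 2.21e-17), 181-fold (adjusted p = 6.1e-18) and 35.8-fold (adjusted p = 1.09e-11) above AbsPro. Other genes called higher in enterocytes were already high in AbsPro. Guca2a was 931 ± 226, 5673 ± 1373 and 4846 ± 1685, and Klf4 was 1511 ± 211, 6580 ± 1367 and 9833 ± 2984. The genes set out here are examples and not a count. Car1 was 15775 ± 5369.7, 67472 ± 15459 and 36459 ± 8128, with the highest mean in AbsPro, and enterocytes did not differ from AbsPro past the threshold (log2 fold change -0.89 ± 0.52 SE, adjusted p = 0.137).

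RNA processing was compared from the tables of skipped exons and of distal poly(A) sites, in which libraries carry no names and cannot be tied to those above. Of 2038 skipped exon events with at least 10 reads in every library, 0 were called by edgeR at an adjusted p under 0.05 (0%), 57 had an unadjusted p under 0.05, and limma on the log2 ratio of inclusion called 0 with 66 under that unadjusted p. The smallest adjusted p of edgeR was 0.654. The study, with rMATS at an FDR under 0.05, reports skipped exon changes between stem cells and the other cell types. The 0 calls here therefore do not show that inclusion was the same in both cell types. The median SD of inclusion was 2.73 percentage points between enterocyte libraries and 0 between stem cell libraries, and in 23 events the libraries did not overlap. Distal site shares were tested for 2329 transcripts with limma, of which 1 was called (0.0429%) and 210 had an unadjusted p under 0.05. It was Hist1h4n, a histone H4 gene of the cluster on chromosome 13, whose tested end lies at chr13:21831793-21832158 of mm10 in the 3′ UTR as the table gives it. Its distal share was 88%, 72% and 89% in stem cells and 100% in all 5 enterocyte libraries (adjusted p = 0.0138), and no transcript was called with the share itself or with a pseudocount of 0.05. The call of Hist1h4n was lost without enterocyte column 1, 2, 3 or 5 (limma, adjusted p 0.0815 to 0.0886). It was kept without column 4 (0.0418). Shares were lower in enterocytes for 1068 transcripts and higher for 1202, with a median difference of 0.333 percentage points, under the median SD of 7.47 between enterocyte libraries.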

How the data were processed

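Read counts per gene were deposited as whole numbers without normalization: the authors aligned paired reads to mm10 with STAR 2.5.2a and counted them with HTSeq 0.6.1p1 without regard to strand, so that overlapping and antisense genes cannot be told apart. For skipped exons the deposited table holds inclusion and skipping counts per library, which the authors made with rMATS, and for poly(A) sites the deposited table holds the fraction of each transcript that uses the distal site, estimated with DaPars and rounded, with no depth. The p-values and differences of the authors in these tables, and their MAJIQ tables, were not used.

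Reads outside genes (45.2 to 83.1% of reads aligned to a single place in the 8 libraries) stayed out of library sizes. Counts of 22 libraries were fitted together in edgeR 4.0.16 (R 4.3.3) after filterByExpr with TMM factors, and p-values were adjusted over all 22781 genes tested. They measure the spread between sorts of mice or pools. DESeq2 1.42.0, RLE factors, library totals, TMM from 2243 genes with background under 10% and counts less background were the other 5 scalings. Exon lengths (24004 of 24421 genes matched) and coordinates came from GENCODE M21 on GRCm38. The background was the rate per kb on 864 genes of 6 families times exon length, and it covers counting alone. Skipped exons were tested with edgeR (reads at least 10 in each of the 8 libraries) and distal shares with limma 3.58.1 on log2 odds with a pseudocount of 0.01. Tests were tried first on simulated data. Same-numbered libraries did not deviate together (correlations 0.0520, -0.0450 and 0.0477), so no pairing was used.

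Members and gene lists were chosen with earlier results of these data known. Named were the sort markers, per list up to 3 called members without overlap with the smallest adjusted p and the member with the highest mean, per marker list the highest member in enterocytes, and the 10 largest changes each way. Genes beyond this rule (Ccng2, Cdkn2c, Rbl1, Scnn1a, Scnn1b, Aqp8, Slc26a3, Cftr, Kcnq1, Kcne3, Slc7a5, Slc1a5, Slc38a1, Dpp4, Atoh1, Spdef, Nlrp6, Ifitm2 and Irf8) complete a count or a comparison and were chosen after their values were seen. Of the genes that the rule picks, 2 are not reported here.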

Additional observations from a re-analysis of the deposited data

Results flagged for a closer look

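Of 151 values examined within the 5 enterocyte libraries, 10 had 1 library set apart from the rest by Dixon's criterion, where chance sets apart about 1 in 20 groups. All 10 were high values. In Ent 4 these were the normalized counts of Axin2 (594, others 260.4 to 332), Cdkn2b (666, others 444 to 494), Hist1h1b (619, others 89 to 210.5), Mcm5 (381, others 259.9 to 277), Rps19 (1269.5, others 303 to 533) and Tgm3 (11007, others 4058 to 5844). In Ent 5 they were Clca3b (6702, others 1376 to 2829.8) and Mptx1 (97085, others 2309.5 to 11381). In Ent 1 they were Pdgfrb (448, others 237 to 298), and the summed level of enteroendocrine markers, 4024 CPM against 1062 to 1802. Apart from this sum the values are scaled by TMM. TMM factors were 1.45 to 1.65 in Ent 1, Ent 2 and Ent 3 and 0.925 and 1.00 in Ent 4 and Ent 5. Which library is set apart can therefore depend on the scaling.

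Reads outside annotated genes enter no comparison. They took a median of 81% of reads aligned to a single place in the enterocyte libraries, against 45.2 to 48.5% in stem cell libraries.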

How the results depend on the processing

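The main comparison called 5058 genes (2448 higher, 2610 lower in enterocytes). None of them was called in the opposite direction in any of the 25 other settings, while the numbers moved. Settings that changed only a threshold, the minimum mean or the genes counted reused the main fit and could not show an opposite call. Calls came to 5240 (3842 higher, 1398 lower) with DESeq2, 6061 (4583 higher, 1478 lower) with RLE factors, 5859 (4161 higher, 1698 lower) with library totals, 5915 (4025 higher, 1890 lower) with TMM from genes with little background, 3470 (2026 higher, 1444 lower) after subtraction of background and 2578 (1474 higher, 1104 lower) in all 6 scalings together, which was added after the data were seen. They were 9995 (7377 higher, 2618 lower) without a minimum mean, 6363 (4337 higher, 2026 lower) with the 8 libraries alone in the fit, 3991 (1112 higher, 2879 lower) with libraries thinned to the smallest, 2474 (605 higher, 1869 lower) among genes with background under 20%, 3587 (1317 higher, 2270 lower) without Ent 1 and Ent 3 and, added after the data were seen, 1731 (652 higher, 1079 lower) without Ent 1, Ent 2 and Ent 3 and 3082 (1276 higher, 1806 lower) with edgeR's older quasi-likelihood method. The share of calls that were higher was 73.8%, 68.2% and 27.9% for the first 3 of these. Leaving out 1 library gave 3972 (without Ent 3) to 5654 calls (without Ent 4), 1750 to 2411 higher and 1880 to 3318 lower. With the replicate number as a block there were 6069 (2464 higher, 3605 lower); replicate numbers are names given to independent sorts.

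Calls higher minus calls lower turned sign in 4 of 32 lists with another scaling and in 2 lists without libraries of high background: carbonic anhydrases (3 with RLE factors, 2 with totals, 2 with TMM from genes with little background, 3 with DESeq2), fatty acid oxidation (1 with DESeq2), respiratory chain (6 with RLE factors, 1 with totals, 4 with DESeq2, 4 after subtraction), BMP signalling (4, 2, 1 and 4 with RLE factors, totals, TMM from genes with little background and DESeq2), antigen presentation (-1 without Ent 1 and Ent 3) and early response genes (-1 without Ent 1, Ent 2 and Ent 3). Calls in unfolded protein response, antigen presentation and lipid synthesis came to 6 to 10 higher and 0 lower, 7 to 10 higher and 1 lower and 11 to 16 higher and 0 to 2 lower with the other 5 scalings. The cause was not tested. Of 139 genes picked by the rule for naming no called one changed sign, 6 to 9 of the uncalled ones were called with each of the 5 other scalings, and with Ent 4 and Ent 5 alone 20 lost their call, among them Cd24a, Rplp0, Eef1a1, Mgam, Fos and Atf3. Skipped exon calls were 0 under every alternative tried. Of these, an adjusted p under 0.01 and a minimum change of inclusion could not have added any. Poly(A) calls were 0 with the share itself, 0 with a pseudocount of 0.05, 0 at an adjusted p under 0.01 and 0 to 6 with 1 library left out. The threshold of 0.01 could only remove calls. Depth was lowest in Ent 1, and low genes of enterocytes cannot be told from background.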
